A study of Mus musculus with 6 samples.

Results

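The D-type cyclins Ccnd1, Ccnd2 and Ccnd3, their kinases Cdk4 and Cdk6, and the retinoblastoma family Rb1, Rbl1 and Rbl2 were followed in mouse medulloblastomas with and without Crebbp. These 8 genes were taken by name from 22180 genes measured on Affymetrix whole-transcript arrays. Each is represented by the array feature with exactly 1 gene symbol and, where a gene had several, the feature with the highest mean over the 6 arrays.

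The Crebbp knockout group held 3 tumours of the genotype Math1Cre::CrebbpFl/FlSmoM2Fl/+, and the Crebbp wild type group held 3 tumours of the genotype Math1Cre::SmoM2Fl/+. Both groups carried SmoM2, an active form of Smoothened, the transducer of Sonic hedgehog (SHH) signals, and the series' design text names the recombinase Math1CreERT2. Tamoxifen (1 mg, at postnatal day 5) activated the recombinase in both groups, and tumour tissue was taken at postnatal day 60. Math1 (Atoh1) is active in granule neuron progenitors of the cerebellum, so other cells of the tissue keep an unrecombined Crebbp and contribute their RNA to each sample. Whether tumours of 1 genotype came from separate litters is not labelled, so the p-values speak to variation among these tumours alone, and having 3 arrays a group limits their precision.

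D-type cyclins are the regulatory subunits that growth signals induce in G1. They bind CDK4 or CDK6, and the active kinases phosphorylate RB1, p107 (encoded by Rbl1) and p130 (encoded by Rbl2), which otherwise hold E2F transcription factors in check. In granule neuron progenitors SHH raises cyclins D1 and D2, and mice that lack Ccnd2 have fewer cerebellar granule cells.

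Values are log2 RMA levels, in which background has been corrected and arrays brought to a common scale, and a change is knockout minus wild type. The targeted gene Crebbp had log2 levels of 11.24, 11.34 and 11.20 in knockout tumours, against 11.80, 11.76 and 11.70 in wild type tumours. Its log2 change was -0.50 (SE 0.09, limma adjusted p = 0.0948), a knockout level at 70.9% of wild type. The exons deleted are not given, so the feature may hold probes outside them. Xist had levels of 12.26 to 12.45 in knockout tumours and of 5.13 to 5.74 in wild type tumours, and Kdm5d, on the Y chromosome, had levels of 4.59 to 4.75 in knockout tumours and of 9.32 to 9.37 in wild type tumours. Genotype and sex therefore cannot be told apart in any comparison of these arrays. None of the 8 genes lies on a sex chromosome. In the sums of Purkinje cell and inhibitory neuron markers, knockout replicate 2 (log2 10.44) stood apart from the other knockout tumours (11.84 and 11.92). Wild type replicate 3 (10.66) lay above the other wild type tumours (9.62 and 10.06). Knockout replicate 2 was also lower in the sums of differentiated granule neuron markers (12.42, against 13.14 and 13.18). In those of astrocyte and Bergmann glia markers, wild type replicate 3 was higher (14.36, against 13.69 and 13.47).

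The mean differences of the 3 D cyclins ran in different directions. Ccnd2 was lower in every knockout tumour than in every wild type tumour, at 62.1% of the wild type level. Ccnd1 had a smaller mean difference in the same direction with overlapping groups, and Ccnd3 had a mean difference in the opposite direction, also with overlapping groups. The 2 kinases and the 3 RB family genes had log2 changes of -0.16 to 0.02. Of the 8 genes, 0 passed a limma adjusted p of 0.05, where 0.207% of all genes did, and 2 (Ccnd2 and Ccnd3) had an unadjusted p under 0.05, where 13.8% of all genes did.

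**Figure D1:**
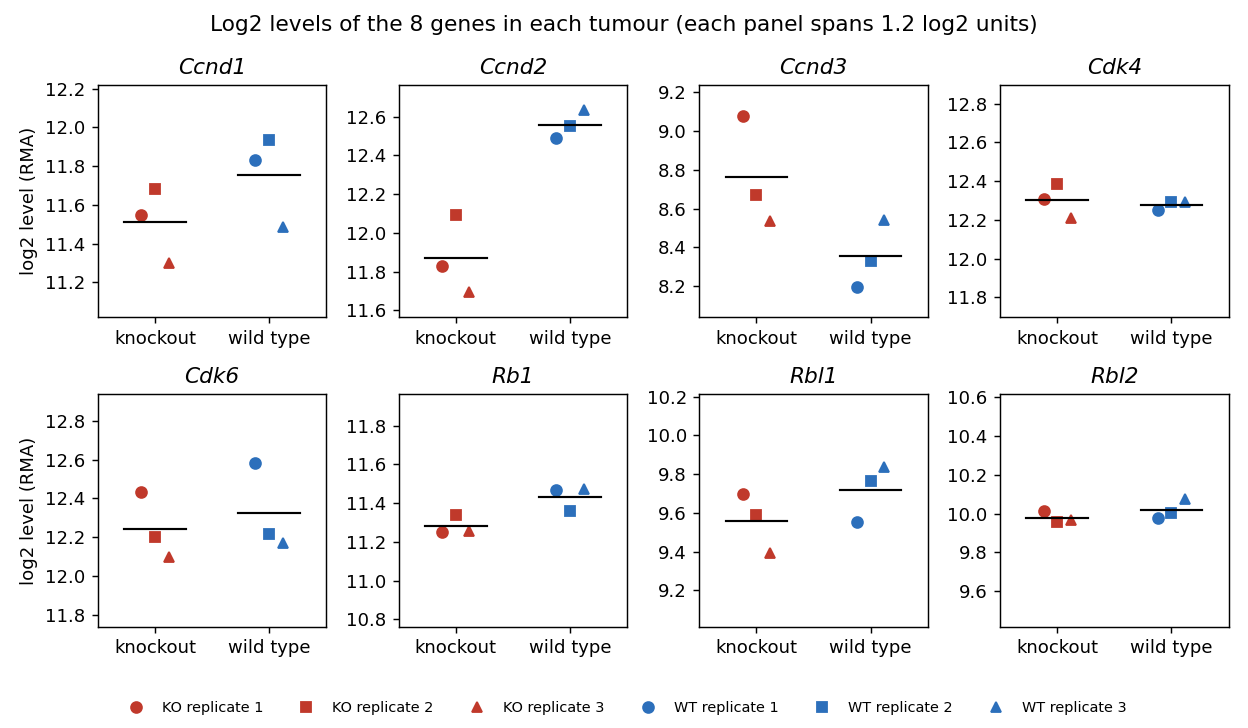
Log2 RMA level (vertical axis) of each of the 8 genes in the 3 knockout tumours (red, left) and the 3 wild type tumours (blue, right), with the group mean as a line and a marker shape for each replicate number. Ccnd2 is the gene with a clear gap between the groups, 11.69 to 12.09 in knockout and 12.49 to 12.63 in wild type tumours, while Cdk4 and Rbl2 hardly vary.

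Ccnd2 encodes cyclin D2, which mouse granule neuron progenitors need for their full expansion. Its feature, 17471222 (chromosome 6), had log2 levels of 11.83, 12.09 and 11.69 in knockout tumours, against 12.49, 12.55 and 12.63 in wild type tumours. The highest knockout value, that of replicate 2, lay 0.40 below the lowest wild type value. The means were 11.87 ± 0.20 in knockout and 12.56 ± 0.07 in wild type tumours (SD, n = 3 each). The log2 change was -0.69 (SE 0.12, 95% interval -0.96 to -0.41), and it ranked 111 of 22180 genes by p. The limma adjusted p over all genes was 0.0948, short of the threshold of 0.05, and the exact permutation p was 0.1 (two-sided), the lowest value possible with 3 against 3.

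Whether Ccnd2 passed depended on the arrays and on the variance model. It passed without knockout replicate 2 (log2 change -0.80, limma adjusted p = 0.0417) and with a mean-variance trend (adjusted p = 0.0331), and the adjusted p was 0.274 without knockout replicate 1 and 0.258 without knockout replicate 3. Under the 15 alternatives the log2 change was -0.80 to -0.60. Its direction could not reverse with single arrays left out, since the groups did not overlap. A mean-variance trend, a replicate block or other genes tested could not alter the size of its change, and array weights gave -0.65.

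Ccnd1 encodes cyclin D1, which many growth signals induce. Its feature, 17498502 (chromosome 7), had log2 levels of 11.55, 11.68 and 11.30 in knockout tumours, against 11.83, 11.94 and 11.49 in wild type tumours. Wild type replicate 3 lay below knockout replicates 1 and 2, so the groups overlapped. The knockout mean differed by -0.24 (SE 0.15, 95% interval -0.59 to 0.11, limma adjusted p = 0.53). With single arrays left out it did not pass, and the change was -0.37 without wild type replicate 3 (adjusted p = 0.24), -0.15 without wild type replicate 2 (0.823) and -0.14 without knockout replicate 3 (0.779).

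Ccnd3 encodes cyclin D3, best known for its part in lymphocyte development. Its feature, 17338269 (chromosome 17), had log2 levels of 9.08, 8.67 and 8.54 in knockout tumours, against 8.20, 8.33 and 8.54 in wild type tumours. Knockout replicate 1 was the highest of the 6. Knockout replicate 3 lay marginally below wild type replicate 3, so the groups overlapped, and the exact permutation p was 0.2 (two-sided). The difference of the means was 0.41 on the log2 scale (SE 0.16, 95% interval 0.04 to 0.77, limma adjusted p = 0.324), a knockout level at 132% of wild type. Without knockout replicate 1 the change was 0.25 (adjusted p = 0.579).

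Because levels of different features cannot be set against each other, the D cyclins were compared by their changes only. The change of Ccnd2 minus that of Ccnd3 was -1.09, and the per-array difference between both genes did not overlap between the groups. The change of Ccnd1 minus that of Ccnd2 was 0.45, again without overlap, and minus that of Ccnd3 it was -0.65, with overlap. Without wild type replicate 3 the change of Ccnd1 minus that of Ccnd2 was 0.28. The exact two-sided permutation p was 0.1 for both pairs with Ccnd2, the smallest possible, and 0.2 for Ccnd1 and Ccnd3. After Benjamini-Hochberg adjustment over the 7 pairs compared, including those of the kinases and of the RB family, the p was 0.35 for each of the 3 cyclin pairs.

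**Figure D2:**
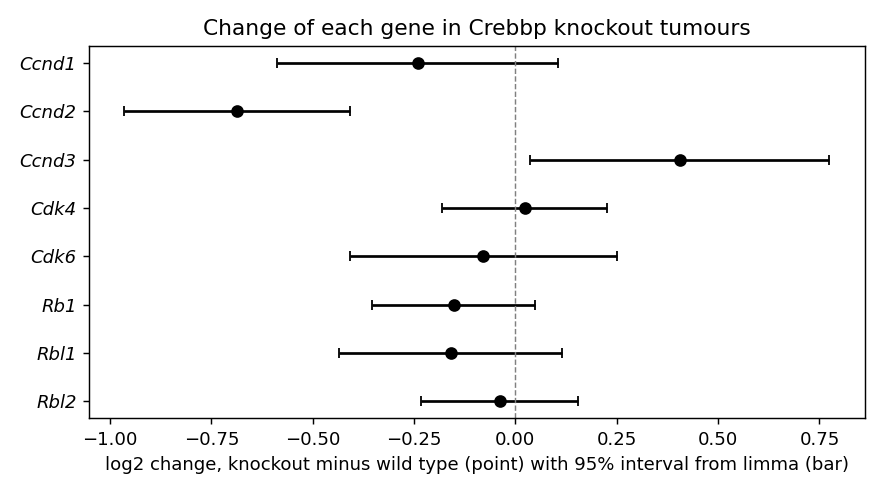
Log2 change, knockout minus wild type (horizontal axis), of each gene with its 95% interval from limma as a bar. The intervals of Ccnd2 (-0.96 to -0.41) and Ccnd3 (0.04 to 0.77) lie on opposite sides of 0, and the others include 0, without adjustment for the number of genes.

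Cdk4 encodes the kinase that is the main partner of D cyclins in many tissues. Its feature, 17237899 (chromosome 10), had log2 levels of 12.31, 12.38 and 12.21 in knockout tumours, against 12.25, 12.29 and 12.29 in wild type tumours. The 3 wild type values lay within the range of the knockout values. A log2 change of 0.02 resulted (SE 0.09, limma adjusted p = 0.938), and the 95% interval of -0.18 to 0.23 limits it to a small size in either direction. Its sign was negative under both other array scalings and without knockout replicate 2.

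Cdk6 encodes the second D cyclin kinase and is amplified in some human medulloblastomas. Its feature, 17434297 (chromosome 5), had log2 levels of 12.43, 12.20 and 12.09 in knockout tumours, against 12.58, 12.22 and 12.17 in wild type tumours. Replicate 1 was the highest of its group in both genotypes. The log2 change was -0.08 (SE 0.14, 95% interval -0.41 to 0.25, limma adjusted p = 0.855), and leaving out 1 array gave 0.05 (wild type replicate 1), -0.17 (knockout replicate 1) or a value near 0 (knockout replicate 3). The change of Cdk4 minus that of Cdk6 was 0.10 (exact permutation p = 0.6, adjusted over the 7 pairs 0.7).

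The promoters of both kinases are shown because they hold the E-box CACGTG, the letters that MYC family factors recognise. Windows of 250 bases before to 50 bases after a start site come from RefSeq (GRCm38.p6). The table gave windows for 5 of the 8 genes, 6 windows in all, since Ccnd3 has 2. The window of Cdk4 is chr10:127063285-127063584 (+ strand), that of Cdk6 chr5:3343643-3343942 (+ strand), and capitals mark CACGTG, which reads the same on both strands.
Cdk4: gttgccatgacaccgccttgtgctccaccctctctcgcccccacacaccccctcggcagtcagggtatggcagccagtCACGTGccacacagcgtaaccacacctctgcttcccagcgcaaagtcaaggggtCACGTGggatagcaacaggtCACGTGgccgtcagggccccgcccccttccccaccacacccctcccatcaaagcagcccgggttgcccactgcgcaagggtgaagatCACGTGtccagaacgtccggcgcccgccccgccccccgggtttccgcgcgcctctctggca
Cdk6: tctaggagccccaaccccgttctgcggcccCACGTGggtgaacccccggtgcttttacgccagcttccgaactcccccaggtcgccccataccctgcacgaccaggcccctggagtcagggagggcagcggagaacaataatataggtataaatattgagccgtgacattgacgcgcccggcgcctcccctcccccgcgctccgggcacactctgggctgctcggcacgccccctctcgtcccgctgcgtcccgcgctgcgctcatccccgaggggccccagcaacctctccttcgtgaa

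In the Cdk4 window the E-box occurs 4 times, beginning 172, 118, 98 and 11 bases before the start site, and in the Cdk6 window it occurs 1 time, 220 bases before it. Of 32851 promoter windows, 7.15% held at least 1 E-box and 8 windows held 4 or more. The E-box was in no window of Ccnd3, Rbl1 or Rbl2. A match of letters is a description and was not tested as a binding site.

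Rb1 encodes RB1, the retinoblastoma tumour suppressor. Its feature, 17308570 (chromosome 14), had log2 levels of 11.25, 11.34 and 11.25 in knockout tumours, against 11.47, 11.36 and 11.47 in wild type tumours. Each knockout value was lower than each wild type value, but the gap between knockout replicate 2 and wild type replicate 2 was 0.02. The log2 change was -0.15 (SE 0.09, 95% interval -0.35 to 0.05, limma adjusted p = 0.488), a knockout level at 90.0% of wild type. Ccnd2 and Rb1 were the 2 of 8 genes with all knockout tumours below all wild type tumours, which held for 9.43% of all genes. The opposite order held for 0 of the 8 and for 10.2% of all genes.

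A dimmer feature with the symbol Rb1 alone, 17308568, had log2 levels of 6.93, 6.68 and 6.72 in knockout tumours, against 6.90, 6.60 and 7.01 in wild type tumours. Its groups overlapped, with a difference of -0.06, and the mean of both Rb1 features gave a log2 change of -0.10 (limma adjusted p = 0.694). A further 2 features carry the symbols of both Rb1 and Lpar6 and were not used.

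Rbl1 encodes p107, the family member whose level rises in cycling cells through E2F. Its feature, 17393684 (chromosome 2), had log2 levels of 9.70, 9.59 and 9.39 in knockout tumours, against 9.56, 9.76 and 9.83 in wild type tumours. Wild type replicate 1 lay below knockout replicates 1 and 2. The log2 change was -0.16 (SE 0.12, 95% interval -0.44 to 0.12, limma adjusted p = 0.601). It was -0.08 when knockout replicate 3 was left out and -0.24 when wild type replicate 1 was, and neither passed.

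Rbl2 encodes p130, the family member that accumulates in resting cells and joins the MuvB proteins in the DREAM repressor complex. Its feature, 17503756 (chromosome 8), had log2 levels of 10.02, 9.96 and 9.97 in knockout tumours, against 9.98, 10.01 and 10.08 in wild type tumours. The 6 values spanned 0.12, and knockout minus wild type was -0.04 (SE 0.08, 95% interval -0.23 to 0.15, limma adjusted p = 0.882). Within the RB family the change of Rb1 minus that of Rbl1 was 0.01, that of Rb1 minus Rbl2 was -0.11 and that of Rbl1 minus Rbl2 was -0.12 (exact permutation p = 1, 0.2 and 0.3, adjusted over the 7 pairs 1, 0.35 and 0.42).

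The promoter of Rbl1 is shown because among the 6 windows it alone held an E2F site by the letters searched, TTTCCCGC, TTTGGCGC or TTTCGCGC on either strand. The window is chr2:157204485-157204784 (- strand, GRCm38.p6, RefSeq), printed 5′ to 3′ along the gene with the match in capitals.
Rbl1: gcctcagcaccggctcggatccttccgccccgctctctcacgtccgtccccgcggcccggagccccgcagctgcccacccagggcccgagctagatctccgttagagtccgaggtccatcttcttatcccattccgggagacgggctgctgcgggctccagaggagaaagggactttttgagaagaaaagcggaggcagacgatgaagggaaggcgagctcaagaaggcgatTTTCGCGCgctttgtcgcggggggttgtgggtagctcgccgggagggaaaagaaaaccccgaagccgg

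The match begins 18 bases before the start site, and 1.84% of all windows held such a site. The same windows were searched on both strands for the cyclic AMP response element TGACGTCA, which CREB binds, and for the GLI site GACCACCCA. Neither occurred in the 6 windows of these genes, against 1.79% and 0.25% of all windows. This says only that those letters are not in these windows.

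The genes also differed in how much they varied between tumours of 1 genotype. The pooled SD within groups was 0.04 for Rbl2, 0.06 for Rb1 and 0.06 for Cdk4, below that of all but 2.3%, 6.0% and 8.3% of genes. Ccnd3 (0.23), Ccnd1 (0.22) and Cdk6 (0.20) varied more than the median gene (0.14). Ccnd2 (0.15) and Rbl1 (0.15) lay near that median.

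Likeness was described by Pearson's r over the 6 arrays, which include the difference between the groups and share the same scaling. Among the 8 genes, Ccnd2 was most like Rb1 (r = 0.905), Rbl1 was most like Rbl2 (r = 0.829), and Ccnd1 was most like Ccnd2 (r = 0.631). Ccnd3 was least like Rb1 (r = -0.657). Among genes of the pathway lists, Ccnd2 was most like E2f8 (r = 0.957), Ccnd1 was most like Mybl2 (r = 0.932), Rbl1 was most like Birc5 (r = 0.942) and Ccnd3 was most like Ptch1 (r = 0.909). Cdk4 was most like Sin3a (r = 0.917), Cdk6 was most like Gsk3b (r = 0.771), Rb1 was most like Cul1 (r = 0.914) and Rbl2 was most like Lin9 (r = 0.848). Over all genes, the highest r was 0.997 for Ccnd2 (Setd1b, then Clec7a at 0.994), 0.994 for Ccnd1 (Srxn1, then Rere at 0.993) and 0.995 for Ccnd3 (Nfatc3, then Vsig10 at 0.993). Rb1 was most like Fcgr1 and Kansl1l (both 0.988), Cdk6 most like Slc7a8 and Ugp2 (both 0.988), and the best matches of Cdk4, Rbl1 and Rbl2 had r of 0.988, 0.985 and 0.995. With 6 arrays such values are common, since the median gene had a best match of r = 0.994.

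**Figure D3:**
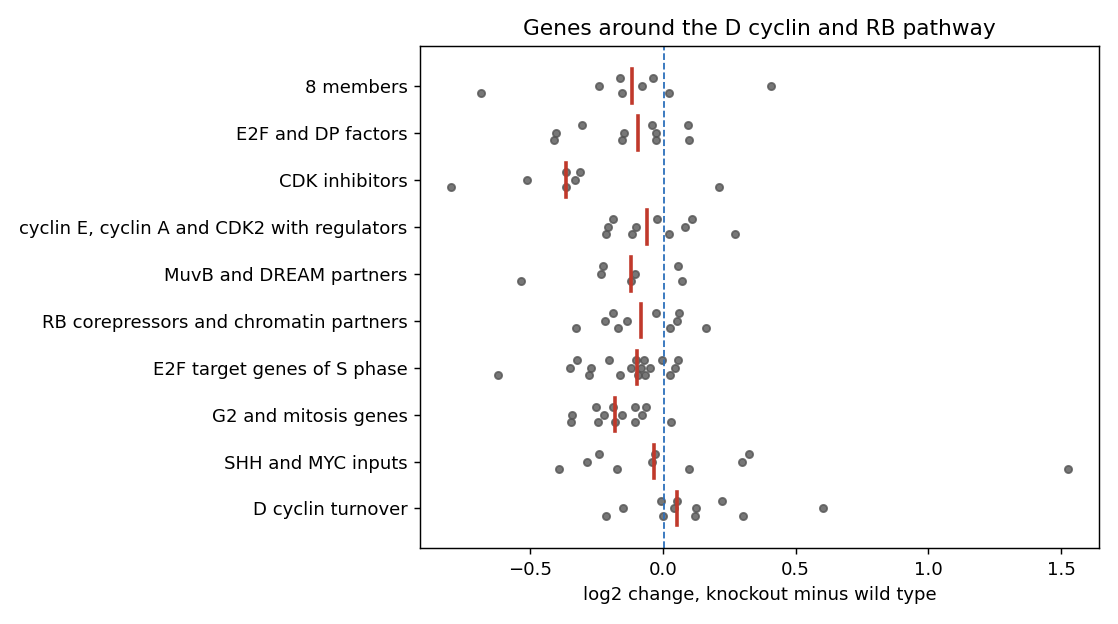
Log2 change, knockout minus wild type (horizontal axis), of each measured gene (grey points, spread vertically for legibility) in the 8 genes and 9 lists around them, with the list median in red and the median of all genes (0.00) as a dashed blue line. The CDK inhibitors have the lowest median (-0.37), and Gli3 (1.53) is the point at the far right.

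Genes upstream and downstream were described through 9 lists. Over all genes the median log2 change was 0.00 and 49.1% of changes were negative. An unadjusted p under 0.05 was found for 13.8% of all genes, the share to set beside the count of each list. Knockout tumours lay wholly below wild type for 9.43% of all genes and wholly above for 10.2%. Wholly below were 5 of 7 CDK inhibitors, 6 of 18 S phase targets, 4 of 10 RB corepressors and 3 of 7 MuvB partners. So were 3 of 13 G2 and mitosis genes and 2 of 10 E2F and DP factors, with 0 wholly above in these lists. SHH and MYC inputs had 2 below and 3 above, D cyclin turnover 1 and 2, and the cyclin E, cyclin A and CDK2 list 1 of each. Among the SHH and MYC inputs, 6 of 10 changes were negative, with a median of -0.04, and 5 (3 positive and 2 negative) had an unadjusted p under 0.05. Leaving out knockout replicate 3 gave a median of 0.06, and leaving out wild type replicate 1 gave 0.01. Gli3, a zinc finger factor that represses SHH targets when processed, had log2 levels of 8.27, 7.46 and 7.68 in knockout tumours, against 6.08, 6.39 and 6.37 in wild type tumours. It rose by 1.53 (SE 0.20, limma adjusted p = 0.042) and was the 1 gene of the 9 lists past the threshold. Its wild type levels lay just above those of absent sex-linked genes (4.31 to 5.74). The stricter filter on dim genes, used as an alternative, removed Gli3, so Gli3 was not tested there. It also passed without knockout replicate 2 (adjusted p = 0.0247), but not without any other single array (knockout replicate 1 or 3, or wild type replicate 1, 2 or 3), where the adjusted p was 0.055 to 0.153. Gli1, which SHH induces directly, had a change of 0.30 (adjusted p = 0.324), and Mycn, which SHH induces in granule neuron progenitors, one of -0.39 (adjusted p = 0.202). In the same list Ptch1 had a change of 0.33 (adjusted p = 0.215) and Gli2 one of -0.24 (adjusted p = 0.318).

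All 7 CDK inhibitors of the Cdkn family were measured, 6 with negative changes and a median of -0.37, and 0 passed a limma adjusted p of 0.05, while 5 had an unadjusted p under 0.05. Cdkn2c, an INK4 inhibitor of CDK4 and CDK6 (p18), had log2 levels of 9.13, 9.09 and 8.70 in knockout tumours, against 9.40, 9.59 and 9.46 in wild type tumours. Cdkn2d, the INK4 inhibitor p19, had a log2 change of -0.37 (adjusted p = 0.237). Cdkn1a (p21) and Cdkn1b (p27), which bind cyclin and kinase together, had log2 changes of -0.80 (adjusted p = 0.184) and -0.31 (adjusted p = 0.337).

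Of 11 measured genes of D cyclin turnover, 8 had positive changes, with a median of 0.05. Btrc, an F-box protein of the SCF ubiquitin ligase, had a log2 change of 0.30 (limma adjusted p = 0.213), Cryab, a chaperone that works with the F-box protein FBXO4 on cyclin D1, one of 0.60 (adjusted p = 0.329), and Cul1, the scaffold of SCF ligases, one of -0.15 (adjusted p = 0.486). In this list 0 genes passed, and 2 of 11 (Btrc and Cryab) had an unadjusted p under 0.05, against 13.8% of all genes.

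Of the 10 E2F and DP factors, 8 had negative changes, with a median of -0.09. E2f8, a repressor E2F, had log2 levels of 8.96, 8.95 and 8.69 in knockout tumours, against 9.19, 9.32 and 9.33 in wild type tumours, and a log2 change of -0.41 (limma adjusted p = 0.184). E2f1, an activator E2F bound by RB1, had log2 levels of 9.48, 9.39 and 9.13 in knockout tumours, against 9.78, 9.70 and 9.73 in wild type tumours, and a log2 change of -0.40 (adjusted p = 0.198). In both genes every knockout value lay below every wild type value, an order that 9.43% of all genes had. E2f2, another activator, had a log2 change of -0.31 (adjusted p = 0.347). In this list 0 genes passed, and 3 (those named) had an unadjusted p under 0.05.

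Among 7 MuvB and DREAM partners, 5 had negative changes, with a median of -0.12, and 0 passed. Foxm1, a transcription factor that joins MuvB to activate mitotic genes, had a log2 change of -0.54 (limma adjusted p = 0.221). It was the 1 gene of the 7 with an unadjusted p under 0.05, a share near the 13.8% of all genes. In 3 of the 7, knockout tumours lay wholly below wild type, against 9.43% of all genes, and in 0 wholly above. The MuvB subunit Lin54 and the MYB factor Mybl2 both had changes of -0.23 (adjusted p = 0.414 and 0.481). Of 10 measured RB corepressors and chromatin partners, 6 had negative changes, with a median of -0.08, and 0 passed. An unadjusted p under 0.05 was found for 2 of the 10, against 13.8% of all genes. Ezh2, the Polycomb methyltransferase, and Smarca4, a chromatin remodelling ATPase, had log2 changes of -0.33 (adjusted p = 0.294) and -0.22 (adjusted p = 0.334), and the deacetylase Hdac2 had one of -0.19 (adjusted p = 0.426).

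Of 10 measured genes around cyclin E, cyclin A and CDK2, 6 had negative changes, with a median of -0.06. Mnat1, an assembly factor of the CDK-activating kinase, had log2 levels of 9.00, 8.94 and 8.95 in knockout tumours, against 8.62, 8.66 and 8.79 in wild type tumours. Its log2 change of 0.27 did not pass (limma adjusted p = 0.245). It was the 1 gene of the 10 with an unadjusted p under 0.05, against 13.8% of all genes. Ccna2, cyclin A2, and Wee1, an inhibitory kinase of CDKs, had log2 changes of -0.19 (adjusted p = 0.446) and -0.22 (adjusted p = 0.462).

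Among 18 measured E2F targets of S phase, 15 had negative changes, with a median of -0.10, and 0 passed the limma threshold. An unadjusted p under 0.05 was found for 3 of the 18, a share near the 13.8% of all genes. In 6 of the 18, knockout tumours lay wholly below wild type, against 9.43% of all genes, and in 0 wholly above. Cdt1, a replication licensing factor, had log2 levels of 9.15, 9.09 and 8.72 in knockout tumours, against 9.50, 9.97 and 9.36 in wild type tumours, and a log2 change of -0.62 (adjusted p = 0.222). Chaf1a, a histone chaperone subunit, and Mcm6, a subunit of the replicative helicase, had log2 changes of -0.35 (adjusted p = 0.284) and -0.32 (adjusted p = 0.287). Of 13 measured G2 and mitosis genes, 12 had negative changes, with a median of -0.18, and 0 passed, while 3 had an unadjusted p under 0.05. That median became -0.07 when knockout replicate 3 was left out and -0.11 when wild type replicate 3 was. Those 3 were the proliferation marker Mki67 (-0.35, adjusted p = 0.231), the mitotic kinase Cdk1 (-0.25, adjusted p = 0.329) and Aurkb (-0.34, adjusted p = 0.348).

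Summed levels of cell type markers also differed between the groups. The sum of 8 granule neuron progenitor markers had log2 values of 13.96 to 14.12 in knockout tumours and of 14.20 to 14.42 in wild type tumours, with 7 of 8 markers negative. The sum of 10 microglia and macrophage markers, 9 of them negative, had values of 12.83 to 13.22 in knockout tumours and of 13.32 to 13.50 in wild type tumours, and that of 7 oligodendrocyte lineage markers, 6 of them negative, values of 12.63 to 12.74 in knockout tumours and of 12.95 to 13.18 in wild type tumours. Of those 7, 1 marker did not overlap between the groups, Pdgfra, the receptor of oligodendrocyte precursors, at 11.43, 11.79 and 11.84 in knockout tumours, against 12.15, 12.07 and 12.19 in wild type tumours. Pdgfra was also the brightest of the 7 and so weighed most in their sum. Sox10 (-0.69), Olig1 (-0.43), Olig2 (-0.41) and Cspg4 (-0.32) overlapped, as did the myelin genes Mbp (-0.16) and Mog (0.06). Markers with every knockout value below every wild type value numbered 6 of 8 for granule neuron progenitors and 5 of 10 for microglia and macrophages. In the oligodendrocyte lineage it was 1 of 7 (Pdgfra). Over all genes the share with this order was 9.43%.

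The sums of 7 Purkinje cell and inhibitory neuron markers, all 7 positive, had values of 10.44 to 11.92 in knockout tumours and of 9.62 to 10.66 in wild type tumours, with overlap. A sum follows its brightest markers, here Calb1 and Car8 in knockout tumours. Of the 7, Gad1 and Gad2 had every knockout value above every wild type value, against 10.2% of all genes, and 0 had the opposite order. The sums of 8 differentiated granule neuron markers also overlapped (12.42 to 13.18 in knockout and 12.37 to 12.63 in wild type tumours). These markers ran both ways, 5 positive and 3 negative, with log2 changes from -1.14 (Neurod1) to 2.72 (Gabra6). The sums of 8 astrocyte and Bergmann glia markers, 6 of them positive, overlapped too (14.08 to 14.17 in knockout and 13.47 to 14.36 in wild type tumours). So did those of 8 endothelial and pericyte markers, 6 of them positive (11.26 to 11.69 in knockout and 11.22 to 11.43 in wild type tumours). No marker was at the level of absent sex-linked genes (4.31 to 5.74) in all 6 arrays. That range comes from 12 values and is no detection limit. Pax2 (5.94 to 6.11), counted among the 7 positive, lay just above it. Fewer cells of a type and less RNA per cell cannot be told apart in these bulk samples, and the part of these markers in the values of Ccnd2 and the other genes was not tested.

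**Figure D4:**
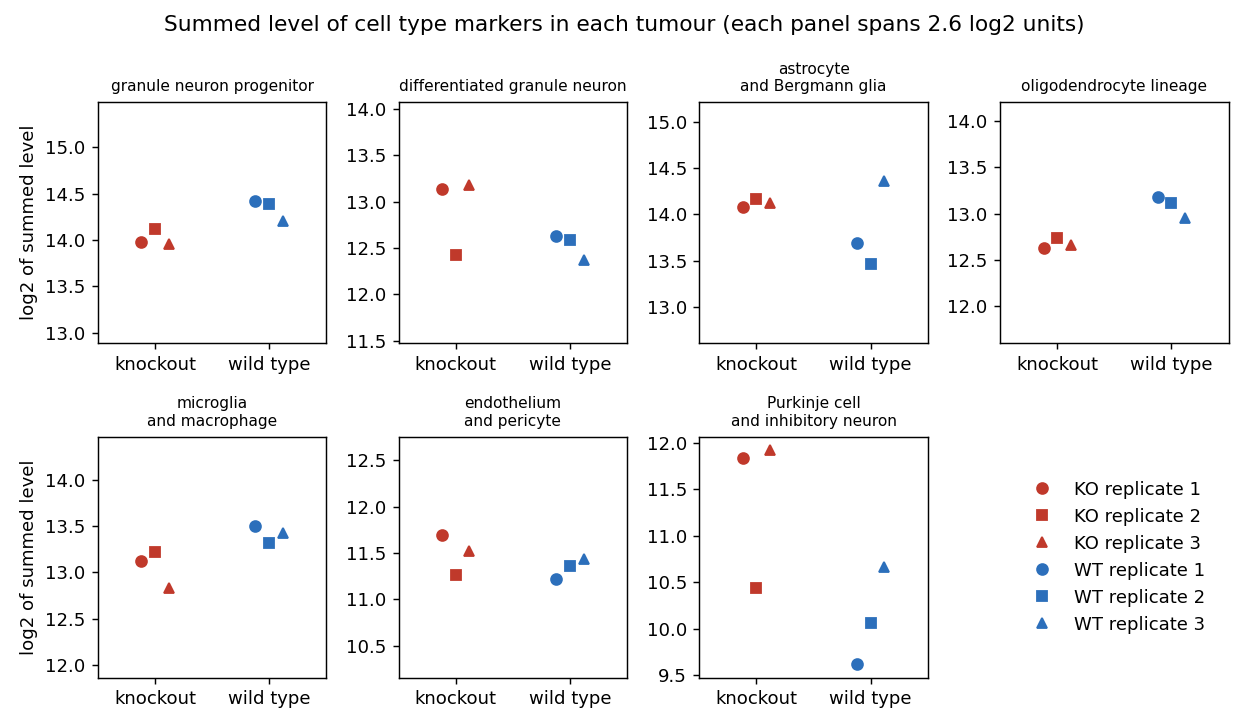
Log2 of the summed level of the markers of each cell type (vertical axis) in knockout tumours (red, left) and wild type tumours (blue, right), with a marker shape for each replicate number. The groups do not overlap in the granule neuron progenitor, oligodendrocyte lineage and microglia and macrophage panels, and knockout replicate 2 (10.44) lies apart from the other knockout tumours in the Purkinje cell and inhibitory neuron panel.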

How the data were processed

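Expression was measured in 6 tumours, 1 array each. The deposited values are on the log2 scale and were made by the authors with RMA (oligo), per the submitters' processing notes. No versions or build are given in the sources used here. Because RMA puts all arrays on 1 scale, a change common to most genes would be lost, and changes of dim features are compressed. Of 41345 features, 23521 had 1 gene symbol in the platform annotation, which left 22180 genes. No filter on level was used.

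The log2 values entered limma 3.58.1 (R 4.3.3, lmFit and eBayes, two-sided) unaltered. P-values were adjusted by Benjamini-Hochberg over the 22180 genes, with 0.05 as the threshold. The fit was tested on simulated data. Paralogs were compared by exact permutation tests (scipy 1.17.1). Alternatives covered scaling, dim genes, the variance model, several features per gene, a replicate block, X and Y genes, the threshold and each array left out.

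The 8 genes and all lists were chosen with earlier results of these data known. Named are the 8 genes, Crebbp and sex-linked genes as checks, and the genes of each list that passed the threshold, or the 3 of lowest p where 0 passed. Gli1, Mycn, E2f1, Cdkn1a, Cdkn1b and Mki67 are named whatever their values. Ptch1 and Gli2 are added as the remaining SHH and MYC inputs with an unadjusted p under 0.05. Gene names and promoters come from RefSeq (GRCm38.p6).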

Additional observations from a re-analysis of the deposited data

How the results depend on the processing

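Of 120 values of the 8 genes' changes under 15 alternatives, 114 kept their direction and their side of the threshold. A mean-variance trend, a replicate block and removal of dim or X and Y genes cannot alter these changes. Their directions there were fixed in advance, and the mean of features alters only Rb1. Ccnd2 passed with a mean-variance trend (log2 change -0.69, limma adjusted p = 0.0331) and without knockout replicate 2, and its change was -0.80 to -0.60 with single arrays left out. Its adjusted p ranged from 0.0331 to 0.274. Cdk4 had the opposite sign with median centring (-0.0057) and quantile normalization (-0.0215). With single arrays left out Cdk4 had changes of -0.0186 to 0.0684 and Cdk6 of -0.17 to 0.0497. The number of the 8 genes past the threshold was 1 with a mean-variance trend and 1 at an adjusted p of 0.1, and 0 to 1 with single arrays left out. The difference in change between Rb1 and Rbl1 (Rb1 minus Rbl1) was -0.0623 to 0.1065 and that between Cdk4 and Cdk6 (Cdk4 minus Cdk6) -0.0401 to 0.1921 with single arrays left out. Crebbp (-0.50) passed in 2 settings, with the dimmest 50% of genes removed (adjusted p = 0.0486) and with the trend (0.0263).

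Over all genes 46 passed, 77 without the dimmest 25% of genes, 107 with a mean-variance trend, 131 at an adjusted p of 0.1, 12 with a replicate block, and 4 to 128 with single arrays left out. Replicate numbers were taken as names only, since deviations of same-numbered arrays correlated at -0.03, 0.05 and 0.10, and with the block Ccnd2 and Gli3 had adjusted p of 0.149 and 0.124. The cause of these shifts was not tested. Of the 135 list medians, 130 moved by less than the spread between replicates. With a mean-variance trend or a replicate block they could not move, and removing genes moves only lists that lose a gene. With single arrays left out, the median ranged over -0.13 to -0.07 for the E2F and DP factors, -0.07 to 0.0008 for cyclin E, cyclin A and CDK2, -0.14 to -0.05 for the RB corepressors, -0.15 to -0.05 for the S phase targets, and 0.03 to 0.11 for D cyclin turnover, and Rbl2 had changes of -0.06 to -0.01.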
